A study of Mus musculus with 8 samples.

Results

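The vascular connexins Gja1, Gja4, Gja5 and Gjc1 are the 4 genes described here, of 34899 genes measured by RNA-seq in mouse lung endothelial cells. They were chosen by gene symbol, as the connexins of the vessel wall, when the HF and LF values of these libraries were already known. Their HF against LF differences are therefore given as a description, with no test of their own. CD45- CD31+ cells were sorted from lungs of female C57BL6 mice, 4 labelled HF and 4 labelled LF, with 8 libraries in all. The labels do not spell out HF and LF and give no age, diet or duration. The series title concerns obesity, neutrophil oxidants and the passage of tumour cells through vessel walls. All animals shared strain, sex and tissue as far as the labels state them, and no transgene or drug is named.

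Connexins are membrane proteins that assemble in sixes into a hemichannel. Hemichannels of neighbouring cells dock through their extracellular loops and form gap junctions, which pass ions, calcium signals and small metabolites. Endothelium uses them to spread hyperpolarisation and calcium waves along the vessel. Gja4 encodes connexin 37 and Gja5 connexin 40, both typical of arterial endothelium. Gja1 encodes connexin 43, the most widespread family member, and Gjc1 encodes connexin 45, known from the conduction system of the heart, from smooth muscle and from early vessels.

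The stretch that defines the family is shown for 3 of the 4 genes to make their relation visible. These are the 39 coding bases at the heart of the first extracellular loop, read from the GENCODE M21 transcripts. Capitals mark the 3 cysteine codons, whose disulfide bonds hold the loops in shape for docking.
Gja1: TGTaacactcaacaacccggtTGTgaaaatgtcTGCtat
Gja5: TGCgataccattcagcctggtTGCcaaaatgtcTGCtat
Gjc1: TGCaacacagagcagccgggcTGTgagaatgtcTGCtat
The stretch starts at codon 54 of the coding sequence in Gja1 and Gja5 and at codon 53 in Gjc1. Gja1 and Gjc1 shared 31 of the 39 bases, and Gja5 shared 28 with either. The longest run of bases common to the transcripts of a pair was 38 for Gja1 and Gja5, 24 for Gja1 and Gjc1 and 14 for Gja5 and Gjc1. These runs were sought over whole transcripts, untranslated parts included. Their place was not recorded and repeats were not excluded, so they are no measure of relation.

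In GENCODE M21 (GRCm38), Gja4 lies on chromosome 4 from 127311421 to 127314039 on the minus strand. The connexin gene Gjb5 lies 40.77 kb away, with a mean of 0.254 normalised counts. Gja5 lies on chromosome 3 from 96904693 to 97077416 on the plus strand. It shares 165 of its 5746 exon bases with Gpr89 on the other strand. Nothing used here states whether reads were counted by strand, so reads of the shared stretch could belong to either gene. Gpr89 had a limma fold of 1.03 (95% interval 0.821 to 1.30). Gja1 lies on chromosome 10 from 56377330 to 56402513 on the plus strand, with no other gene overlapping it and the nearest coding gene 148.64 kb away. Gjc1 lies on chromosome 11 from 102799579 to 102819700 on the minus strand, 16.15 kb from Higd1b, a marker gene of pericytes.

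Libraries held 10631506 to 20781564 reads assigned to genes. The libraries LF 1 and LF 2 stood apart, at -56.4 and -50.9 on the first principal component of all tested genes, where the other 6 lay between -6.79 and 39.6. LF 3 and LF 4 stood apart on the second component, at -38.5 and -34.2, with the others between -1.41 and 29.6. LF 1 held the fewest reads. LF 1 and LF 2 had the largest shares of reads in genes of the GENCODE type TEC (0.725% and 0.635%, against 0.286% to 0.443%). The change of each vascular connexin is therefore also given with either LF pair removed, LF 1 and LF 2 or LF 3 and LF 4. These pairs were picked from the same values, and each reduced fit keeps LF libraries that lie close together on these components. Intervals and adjusted p of the reduced fits, for any gene, leave out the spread between the LF pairs. They are given as a description. Values are the authors' normalised counts, and genes with at least 10 of them in at least 4 libraries, 17067 in all, were fitted with limma on log2(normalised count + 1). Folds are HF over LF from that fit. The endothelial markers Pecam1 and Cdh5 lay between 19425 and 33236 and between 9595 and 13204. Epcam, which marks epithelium, lay between 24.9 and 97.9, Ptprc, which encodes CD45, between 90.4 and 265, and Myh6, which marks the cardiac muscle around pulmonary veins, between 0 and 4.52. Other markers of such cells were far higher. Means in HF and LF were 5805 and 6628 for the epithelial Sftpc and 3856 and 5400 for the leukocyte Lyz2. The 10 leukocyte markers summed to 3476 to 6201 in HF and 5973 to 7310 in LF. The 6 markers of platelets and erythrocytes summed to 17785 to 20962 in HF and 19780 to 34827 in LF.

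Of 20 mouse connexin genes listed, 18 had a row in the table, and all 4 vascular connexins passed the filter on low values. The 13 connexins below the filter had means of 0.115 to 6.01 normalised counts, and their highest value in any library was 12.4 (Gja6).

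Gja4 was by far the most abundant connexin transcript once gene length was taken into account. On the scale of normalised counts per kb of exon, its level was 3470 ± 723 (SD, n = 8 libraries), that of Gjc1 204 ± 51.9, that of Gja5 132 ± 35.7 and that of Gja1 43.2 ± 11.2. Within a library the level of Gja4 was 10.8 to 31.2 times that of Gjc1, and this order held in 8 of 8 libraries. The level of Gjc1 was 1.10 to 3.04 times that of Gja5, again in 8 of 8. That pair lies close together, since the mean log2 ratio of 0.65 was not far above its SD of 0.48. The level of Gja5 was 1.34 to 5.62 times that of Gja1 in 8 of 8 libraries.

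The length used matters for the lower ranks. Gja1 has 10257 exon bases over all its transcripts and 3889 in its longest one, whereas Gja4 has a single model of 1685 bases. With the longest transcript as the length, the levels per kb were 299.6 ± 76.1 for Gjc1, 207 ± 55.9 for Gja5 and 114 ± 29.5 for Gja1. Gja5 was then above Gja1 in 6 of 8 libraries, and the exceptions were LF 1 (105 against 133) and LF 2 (148 against 167). Gja4 made up 89.9% ± 2.28 of the summed level per kb of the 4 genes with all exons and 84.4% ± 3.30 with the longest transcript.

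**Figure D1:**
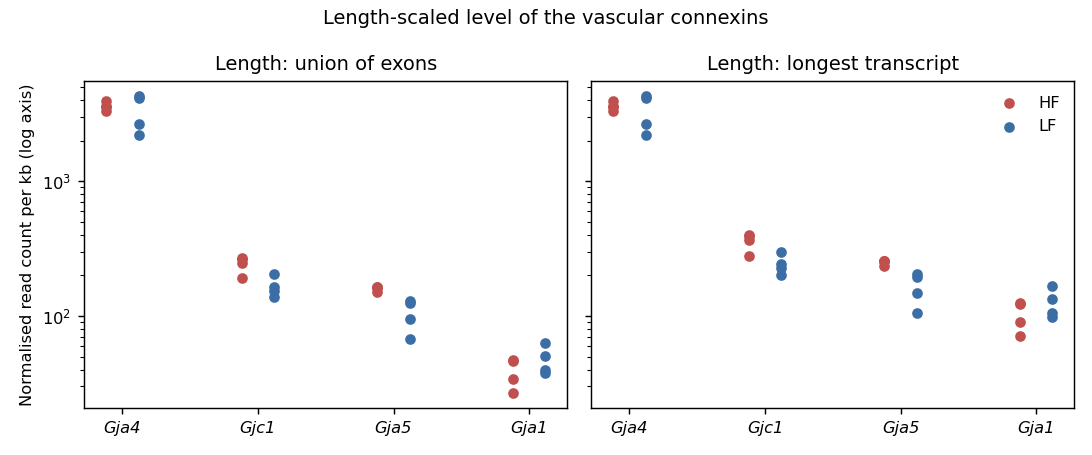
Normalised read count per kb (log axis) of the 4 vascular connexins in each library, HF in red and LF in blue, with all exons (left) or the longest transcript (right) as the length. Gja4 lies at least 10.8 times above Gjc1 in each library on the left, while Gja5 and Gja1 come close on the right.

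Gja5 was the connexin whose groups separated. Its normalised counts were 945, 938, 930 and 865 in HF 1 to HF 4 and 387, 543, 745 and 715 in LF 1 to LF 4. The HF libraries lay close together (920 ± 36.9, SD, n = 4) and all above the LF libraries (597 ± 166), which were themselves spread over a wide range. The fold was 1.59 (95% interval 1.20 to 2.10), with 317 to 1098 reads behind each value. The fold was 1.26 (1.07 to 1.48) without LF 1 and LF 2, the lowest LF libraries, and 2.0 (1.62 to 2.48) when LF 3 and LF 4 were removed. In these 8 bulk libraries, a change in the share of arterial cells and a change in RNA per cell cannot be told apart.

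Gjc1 was at 955, 1241, 1327 and 1355 in HF 1 to HF 4 and at 1025, 824, 768 and 686 in LF 1 to LF 4. HF 1 lay below LF 1, so the groups overlapped by these libraries, while the other HF values were above every LF value. The group values were 1219 ± 183 and 826 ± 144 (SD, n = 4 each), a fold of 1.48 (1.17 to 1.86). Removing LF 1 and LF 2 gave 1.66 (1.33 to 2.08), and removing LF 3 and LF 4 gave 1.31 (1.04 to 1.66). Its dependence on the LF libraries thus ran opposite to that of Gja5.

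Gja4 showed no common direction. It was at 6635, 6116, 5611 and 6021 in HF 1 to HF 4, and at 3733, 4451, 6986 and 7222 in LF 1 to LF 4. All 4 HF values lay in the gap between the LF 1 and LF 2 values and those of LF 3 and LF 4. The fold was 1.13 (0.838 to 1.53) with all libraries. It was 0.857 (0.739 to 0.993) without LF 1 and LF 2 and 1.49 (1.27 to 1.75) with that pair as the only LF libraries, so the direction turned with the choice of LF libraries.

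Gja1 was at 487, 351, 478 and 275 in HF 1 to HF 4, and at 516, 648, 384 and 406 in LF 1 to LF 4. The groups overlapped, with the 2 highest values in LF 1 and LF 2 and the 2 lowest in HF 2 and HF 4. The fold was 0.810 (0.587 to 1.12), or 0.980 (0.709 to 1.36) without LF 1 and LF 2. Removing LF 3 and LF 4 gave 0.670 (0.480 to 0.934).

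**Figure D2:**
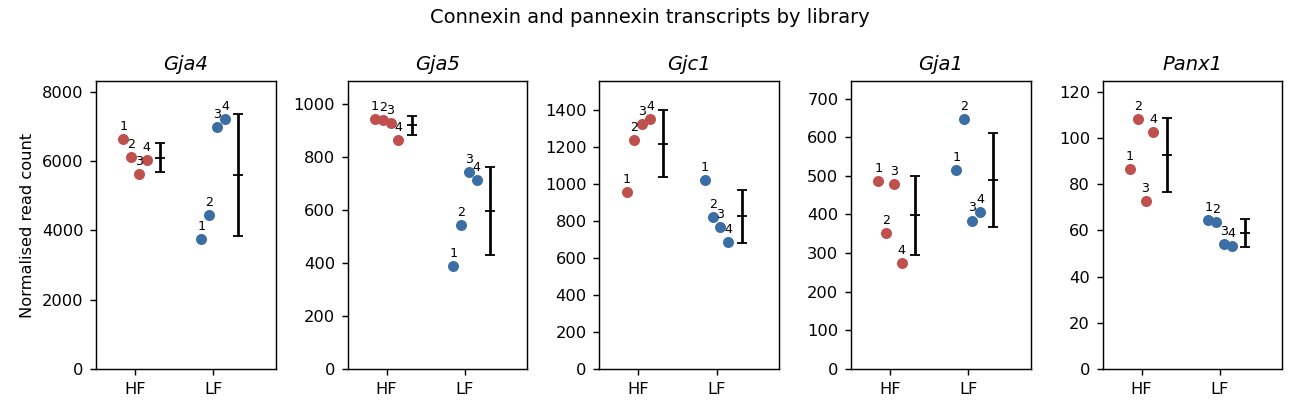
Normalised read counts of the vascular connexins and Panx1 in each library (numbered points, HF red, LF blue), with the mean and SD of each group (n = 4) as black bars. HF lies above LF in every library for Gja5 and Panx1, and the Gja4 values of HF fall between those of LF 1 and LF 2 and those of LF 3 and LF 4.

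By the counts of calls, 1 of the 4 genes (Gja5) had all HF values above all LF values, where 3.47% of the genes tested did, and 0 of 4 had them all below, where 1.96% did. limma called 0 of the 4 at an adjusted p under 0.05 (0% of genes tested, with 1882 genes at an unadjusted p under 0.05). edgeR also called 0 of 4 (0%), as did DESeq2 (1.83%). The authors' deposited table lists 1 of 4, Gjc1, below that threshold (2.04% of the genes with an adjusted p). Without LF 1 and LF 2, limma called 1 of 4, Gjc1 higher in HF (3.76%). Without LF 3 and LF 4 it called 2 of 4, Gja4 and Gja5, both higher in HF (20.0%). Since the genes were chosen with this contrast known, nothing is read from these counts.

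**Figure D3:**
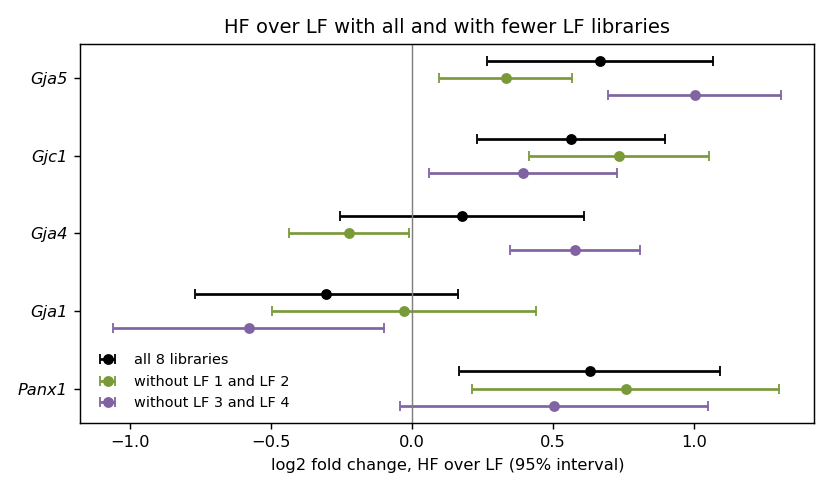
log2 fold change of HF over LF from limma with its 95% interval for the vascular connexins and Panx1, with all 8 libraries (black), with LF 1 and LF 2 removed (green) or LF 3 and LF 4 removed (purple). Gja5 and Gjc1 stay right of 0 in the 3 fits, and Gja4 lies at 0.18, -0.22 and 0.58.

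Set against Gja4 within the same library, the balance of the arterial pair did not overlap between the groups. The ratio of Gja5 to Gja4 normalised counts was 0.142, 0.153, 0.166 and 0.144 in HF 1 to HF 4 and 0.104, 0.122, 0.107 and 0.0990 in LF 1 to LF 4. The ratio was higher in all 4 HF libraries than in any LF library, and LF 1 and LF 2 no longer stood apart from LF 3 and LF 4. Its means were 0.151 ± 0.0108 and 0.108 ± 0.00999 (SD, n = 4 each), a quotient of 1.40. Of the other 17066 genes tested, Gja5 included, 0.258% had a ratio to Gja4 that was higher in every HF library. Without division by Gja4 the share of genes tested was 3.47%, so the smaller share depends on the scale chosen. The ratio of Gja5 to Gja4 was formed after the values had been seen and is given as a description.

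The ratios of the other members to Gja4 overlapped between the groups. The ratio of Gjc1 to Gja4 was 0.144 to 0.237 in HF and 0.0951 to 0.275 in LF, with the highest value in LF 1 and the lowest in LF 4. The ratio of Gja1 to Gja4 was 0.0457 to 0.0852 in HF, against 0.138 and 0.146 in LF 1 and LF 2 and 0.0550 and 0.0562 in LF 3 and LF 4. Of the 3 pairs without Gja4, the ratio of Gja1 to Gja5 did not overlap either. It was 0.515, 0.374, 0.514 and 0.318 in HF 1 to HF 4 and 1.33, 1.19, 0.516 and 0.568 in LF 1 to LF 4, so the groups met between HF 1 and LF 3 and only LF 1 and LF 2 lay far above. All pairs of members were compared, and no share over all genes was computed for ratios to Gja5. Nothing is therefore read from this lack of overlap. The ratios of Gja1 and of Gja5 to Gjc1 overlapped. In percent of the summed level per kb, Gja5 made up 3.74% to 4.25% in HF and 2.65% to 3.19% in LF, and Gjc1 4.40% to 6.97% and 2.99% to 8.07%.

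**Figure D4:**
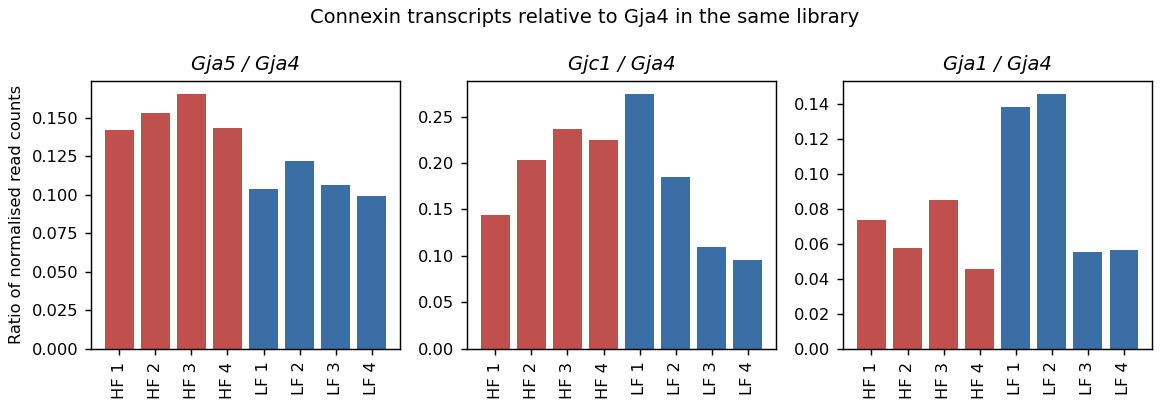
Ratio of Gja5, Gjc1 and Gja1 to Gja4 normalised counts in each library (bars from 0, HF red, LF blue). The Gja5 bars of HF lie between 0.142 and 0.166 and those of LF between 0.0990 and 0.122, while the other panels overlap.

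Across the 8 libraries the 4 genes did not follow a single pattern. Pearson's r of log2 values was 0.79 between Gja4 and Gja5 (Spearman's rho 0.38), 0.36 between Gja5 and Gjc1 (0.38) and -0.20 between Gja4 and Gjc1 (-0.52). Gja1 ran against the others, with r of -0.56 with Gja4, -0.52 with Gja5 and -0.37 with Gjc1 (rho -0.50, -0.43 and -0.33). These are descriptions over libraries that share 2 groups and the separation of LF 1 and LF 2. Of 10888 genes with a mean of at least 50, those with patterns most like Gja1 included the laminin chain Lama4 (r = 0.98), Parp8 (0.98) and Car5b (0.98). For Gja4 they were Ddx3x, an RNA helicase (0.99), Ppp2r2a, Wsb1 (both 0.99) and Prkcsh (0.98). For Gja5 they were Srms, Ptpn12, Smg8 (0.98 each) and Plat, which encodes tissue plasminogen activator (0.97). For Gjc1 they included the calcium sensor Stim2 (0.99), Sec63 (0.98) and Rasa1 (0.98).

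Transcripts of other cell types that carry connexins 43 and 45 also varied between the libraries. The 15 markers of smooth muscle and pericytes summed to 4635 to 5121 normalised counts in HF and 5859 to 7715 in LF, the reverse of Gjc1, and 14 of the 15 had the lower mean in HF. Higd1b, the neighbour of Gjc1, was at 462 to 522 in HF and 523 to 778 in LF, a fold of 0.751 (0.609 to 0.926; limma adjusted p = 0.302). The 8 fibroblast markers summed to 4772, 2384, 3888 and 2307 in HF 1 to HF 4, high and low in the same libraries as Gja1. In LF 1 to LF 4 they summed to 4171, 6876, 3388 and 5339. The 12 epithelial markers summed to 10664 to 19959 in HF, lowest in HF 4, and 13371 to 29303 in LF, highest in LF 2, as Gja1 was. The 10 cardiac markers summed to 212 to 248 in HF and 234 to 268 in LF, with 4 of 10 passing the filter, and the cardiac Myh6 was at or near 0. The part of fibroblasts, epithelium and mural cells in the Gja1 and Gjc1 values was not tested. The 12 markers of all endothelium summed to 167222 and 182748 in LF 1 and LF 2, and to 233426 to 289291 in the other 6 libraries, and Gja4 and Gja5 were lowest in the same pair. The part of this in the Gja4 and Gja5 values was not tested.

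Pannexins form channels in single membranes and release ATP. Panx1 was the only one of 3 pannexin genes to pass the filter, at 86.4, 108, 72.9 and 102 in HF 1 to HF 4 and 64.7, 63.7, 54.2 and 53.15 in LF 1 to LF 4. The HF values lay above all LF values, as in 3.47% of genes tested. The fold was 1.55 (1.12 to 2.13), and Panx1 did not pass limma's test (adjusted p = 0.303). Removing LF 1 and LF 2 gave a log2 fold change of 0.76, and removing LF 3 and LF 4 gave 0.50, with limma adjusted p of 0.155 and 0.164.

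Among 27 genes for the binding, trafficking and turnover of connexins, 26 were tested, and the mean was higher in HF for 18 of them. Their log2 fold changes had a median of 0.08, against 0.02 over all genes tested, and limma called 0 of 26. The genes named next were picked for a small p within this list. Cdh5, Akt1 and Src, a tyrosine kinase that closes connexin 43 channels, had folds of 1.18 (0.956 to 1.45), 1.18 (0.951 to 1.47) and 0.715 (0.457 to 1.12), with limma adjusted p of 0.548, 0.557 and 0.565. Cdh5 was called higher by limma with LF 3 and LF 4 removed (log2 fold change 0.42, adjusted p = 0.0105), and had 0.06 with LF 1 and LF 2 removed (adjusted p = 0.872).

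Of 16 genes for calcium entry and hyperpolarisation at junctions between endothelium and smooth muscle, 15 were tested, the mean was higher in HF for 7, and limma called 0. Their median log2 fold change was -0.0097. The genes named next were picked for the smallest p in this list, so their folds and calls are a description. Orai1, the channel pore of store-operated calcium entry, was at 711, 856, 933 and 1127 in HF 1 to HF 4 and 591, 464, 457 and 458 in LF 1 to LF 4. The HF values lay above all LF values, as in 3.47% of genes tested. The fold was 1.83 (1.45 to 2.31, limma adjusted p = 0.124). limma called Orai1 higher with LF 1 and LF 2 removed (adjusted p = 0.00829) and with LF 3 and LF 4 removed (adjusted p = 0.0135). Both reduced fits use the same HF libraries, so these calls are not independent. Trpv4, a calcium channel opened by stretch and lipid signals, was at 622 to 740 in HF and 360 to 526 in LF, a fold of 1.52 (1.23 to 1.89; limma adjusted p = 0.163). limma called Trpv4 higher with LF 3 and LF 4 removed (log2 fold change 0.71, adjusted p = 0.0105), and its value was 0.51 with LF 1 and LF 2 removed (adjusted p = 0.0535). Nos3, the endothelial nitric oxide synthase, had a fold of 1.38 (1.06 to 1.79; limma adjusted p = 0.352). Its log2 fold change was 0.75 with LF 3 and LF 4 removed (limma adjusted p = 0.00464) and 0.18 with LF 1 and LF 2 removed (0.675).

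The 25 regulators of flow response and arterial identity, among them known activators of Gja4 and Gja5, had a higher HF mean in 22 genes. Their log2 fold changes had a median of 0.26, which became 0.27 after removing LF 1 and LF 2 and 0.31 after removing LF 3 and LF 4, and limma called 0 of 25 with all libraries. In the first of these subsets it called 6 higher, where it called 3.76% of all genes in either direction, and in the second it called 5 higher and 1 lower, where it called 20.0% of all genes. Sox17, a transcription factor of arterial endothelium, was at 3441, 3868, 4916 and 5045 in HF 1 to HF 4 and 3126, 3149, 1525 and 1654 in LF 1 to LF 4. Its HF values were all above its LF values, as in 3.47% of genes tested, but here LF 1 and LF 2 were the higher LF libraries, unlike for Gja5. The fold was 1.91 (1.33 to 2.74; limma adjusted p = 0.181). Its log2 fold change was 1.42 with LF 1 and LF 2 removed (limma adjusted p = 0.00233) and 0.44 with LF 3 and LF 4 removed (0.0526). Klf2, induced by laminar flow, had a fold of 2.16 (1.39 to 3.35; limma adjusted p = 0.191), the Notch receptor Notch4 2.21 (1.43 to 3.40) and its ligand Jag1 1.50 (1.20 to 1.86), both with a limma adjusted p of 0.176. With LF 1 and LF 2 removed, limma called Klf2 (log2 fold change 1.59, adjusted p = 0.00555) and Notch4 (1.67, adjusted p = 0.00388) higher. With LF 3 and LF 4 removed, these values were 0.63 for Klf2 (limma adjusted p = 0.0987) and 0.62 for Notch4 (0.0692). Jag1 went the other way, with 0.48 in the former subset (limma adjusted p = 0.162) and 0.68 in the latter (0.0155). This list and several of its members were known from earlier results of these libraries. The genes named from it were picked for their small p, so their folds and calls are a description.

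Gja5 and Gja4 also stood in a list of 18 arterial markers, of which 17 were tested. The mean was higher in HF for 14, and the median of the log2 fold changes was 0.19. limma called 0 of 17. With all 8 libraries, a higher HF mean was not particular to this list. It was found for 10 of 10 general capillary markers tested (median 0.23), 7 of 9 venous (0.22) and 11 of 12 of all endothelium (0.24). For aerocyte markers it was 5 of 10 (0.07) and for lymphatic markers 2 of 6 (-0.16). Without LF 1 and LF 2 the medians were 0.20 arterial, 0.06 general capillary, 0.32 venous, -0.05 all endothelium, -0.25 aerocyte and 0.03 lymphatic. Without LF 3 and LF 4 they were 0.34, 0.45, 0.37, 0.53, 0.36 and -0.59 in the same order. The 18 arterial markers summed to 50865 to 58295 in HF and 39104 to 49923 in LF without overlap. Gja4 itself supplied 3733 to 7222 of each sum. Sox17, with 3441 to 5045 in HF and 1525 to 3149 in LF, and Gja5 were also in the sum. Both had all HF values above all LF values, and the list was chosen with earlier results known. Nothing is therefore read from the lack of overlap. Aerocyte markers, for the thin capillary cells of gas exchange, summed to 58948 to 75825 in HF, between LF 1 and LF 2 (52965 and 49505) and LF 3 and LF 4 (78938 and 83980), the same order as for Gja4.

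The bases before the transcription starts of the arterial pair are shown because these genes differed in how they related to the groups. They are the 250 bases upstream in the RefSeq table (GRCm38.p6), which held entries for 3 of the 4 genes, Gjc1 being the exception. The RefSeq start of Gja5 lies inside the longer GENCODE gene, downstream of its first base. Capitals mark the searched motifs: CACCC for KLF factors, TGGGAA for RBPJ of the Notch pathway, ATTGT for SOX factors, GGGCGG for Sp1, TGANTCA for AP-1, and TATAAA for the TATA box, on both strands.
Gja5, chr3:97032152-97032401, plus strand: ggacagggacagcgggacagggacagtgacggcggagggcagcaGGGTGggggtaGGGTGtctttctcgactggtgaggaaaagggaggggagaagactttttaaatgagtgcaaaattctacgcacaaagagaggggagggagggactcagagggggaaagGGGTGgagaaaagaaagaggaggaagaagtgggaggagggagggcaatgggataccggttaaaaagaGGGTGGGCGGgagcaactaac
Gja4, chr4:127314040-127314289, minus strand: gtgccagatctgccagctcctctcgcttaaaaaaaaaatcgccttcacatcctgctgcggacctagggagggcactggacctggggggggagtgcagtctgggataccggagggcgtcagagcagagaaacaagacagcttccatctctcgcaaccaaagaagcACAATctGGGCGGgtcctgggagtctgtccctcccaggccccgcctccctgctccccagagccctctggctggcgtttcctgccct
The Gja5 window held 4 matches to CACCC, all on the opposite strand, and 1 to GGGCGG, which overlaps the last of them. At least 1 CACCC match was present in 52.0% of 32851 promoter windows of this length, and GGGCGG in 32.7%. At least 4 CACCC matches were present in 2.14%. That cut-off was taken from the Gja5 window itself and used for this motif only, so the share is no measure of rarity. The Gja4 window held 1 ATTGT match on the opposite strand (27.7% of windows) and 1 GGGCGG. In the Gja1 window the search found 1 TGAGTCA, a form of TGANTCA (6.75% of windows), starting 19 bases before the start. TGGGAA, present in 21.6% of windows, and TATAAA, in 12.4%, had no match in any of the 3 windows. These matches are letters in a window, and no binding was measured.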

How the data were processed

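The 8 libraries (4 HF, 4 LF) were matched to columns by their titles, and 0 columns matched no sample. Per the labels' protocols, TRIzol LS was used for RNA extraction and a SMART-Seq kit for the libraries. Tools listed in the submitters' processing notes are DESeq2 1.24.0, featureCounts 2.0.0 and STAR 2.6.1b. Build, annotation, strand setting and read length were not given in the sources read. The authors deposited normalised counts, a signal with no scaling for length. Per the file headers, their comparison adds a log2 fold change, the Wald score, and raw and adjusted p-value columns. In each library all values were whole multiples of 1 step within 0.01 reads (100% of values), so whole reads were recovered for edgeR and DESeq2. Positions and lengths came from GENCODE M21 (GRCm38), where 34899 of 34899 IDs were found.

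limma 3.58.1 (trend, two-sided, Benjamini-Hochberg adjustment over 17067 genes, no covariates) was fitted on log2(normalised count + 1), whose folds understate changes of low genes. edgeR 4.0.16 (quasi-likelihood, TMM) and DESeq2 1.42.0 were alternatives, beside pseudocounts, filters, scalings, array weights, a block and left-out libraries. The limma fit was tested on simulated counts of independent libraries, with the same dispersion for all genes and larger folds than those of the connexins. That setting lacks the separation of the LF pairs, so nothing about the present folds is read from it. Members, lists and named genes (the 4 genes of smallest p in 3 lists, other connexins and pannexins that passed, cell type markers, neighbours by position, and the 4 most similar patterns per member) were chosen with earlier results of these data known. Some genes that this rule names, and 1 sequence, are not reported here. The design text gives 4 mice per group without tying each library to 1 mouse, so p-values measure the spread between these samples. All library pairs differed beyond sampling noise (chi-square per degree of freedom 10.1 to 51.3). The highest value was between LF 1 and LF 4, above that of any HF with any LF library (at most 43.05, HF 4 with LF 2). Reads without molecular identifiers are not independent molecules.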

Additional observations from a re-analysis of the deposited data

Results flagged for a closer look

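One value stood far from the others of its group. Orai1 in LF 1 was at 590.5 normalised counts, while LF 2 to LF 4 lay between 457 and 464. The gap was 0.947 of the range of the 4 libraries. The limit for flagging, which this gap exceeded, is one that about 1 of 20 groups passes by chance. In all, 34 groups were examined, those of the vascular connexins, Panx1 and the genes chosen from the lists. No vascular connexin had such a value.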

How the results depend on the processing

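With all 8 libraries limma called 0 genes, and so it did with the other pseudocounts, scalings, weights and a mean of at least 50. It called 1 gene with no filter on low values and 0 to 1 when single libraries were left out (1 without LF 2 or without LF 4), while DESeq2 called 313. Leaving out LF 1 and LF 2 gave 641 calls and leaving out LF 3 and LF 4 gave 3421. Both of these fits lack the spread between the LF pairs. These pairs also moved Gja4 (log2 fold change -0.22 and 0.58, from 0.18) and Gja5 (0.33 and 1.0, from 0.67) by more than the spread between replicates. The other 79 alternative values for the changes of the 4 connexins moved by less, among them the log2 changes relative to Gja4, a scale chosen after seeing the data (-0.48 for Gja1, 0.49 for Gja5, 0.39 for Gjc1), and Gja1 kept its lower and Gja5 and Gjc1 their higher mean in HF in all 20 of the settings tried for them. With the longest transcript as the length, levels per kb were 114 for Gja1, 207 for Gja5 and 299.6 for Gjc1, and the shares became 2.97%, 84.4%, 5.01% and 7.59% for Gja1, Gja4, Gja5 and Gjc1, through the shorter lengths alone. The replicate block called 0 genes and gave log2 fold changes of 0.67 for Gja5 and 0.56 for Gjc1. The labels give no shared source for equal numbers, whose libraries had correlations of -0.222 to 0.185, and 2 of 8 libraries correlated best with their own number. Each vascular connexin had 317 to 7643 reads per library, while the 13 low connexins, at 12.4 normalised counts or fewer, were too shallow for a comparison.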
